A study of Homo sapiens with 12 samples.

Results

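The genes described here are 54 genes of DNA replication and nucleotide supply, which were chosen by name from 58302 genes measured in each library. They comprise 5 origin loading genes, 6 genes of the MCM helicase core, 8 helicase activation genes, 6 genes of the sliding clamp and its loader, 8 polymerase and primase genes, 5 genes of single-strand binding and strand maturation, 6 genes of nucleotide supply and uracil removal, 3 fork protection genes, 4 chromatin assembly and histone supply genes and 3 genes that drive entry into S phase. All 54 had enough signal to be tested in both cell lines. The measurements come from 12 mRNA libraries of 769-P and ACHN cells, a pair of human kidney cancer lines that the labels call clear cell renal cell carcinoma (ccRCC) cells. Each line was transfected for 48 h with siRNA against NUF2 (si-NUF2) or with a control siRNA (si-NC), and each of the 4 groups has 3 replicates. NUF2 is a subunit of the NDC80 complex, which ties kinetochores to spindle microtubules in mitosis. Each group is a transient transfection of 1 established line, with no untransfected cells among the libraries.

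DNA replication starts at origins that are loaded with the MCM helicase in G1 by the origin recognition complex, CDC6 and CDT1, with geminin (GMNN) holding CDT1 in check. In S phase the kinase of CDC7 and DBF4, CDC45 and the GINS complex switch the helicase on, primase and polymerase alpha lay down primers, and polymerases delta and epsilon extend them on the PCNA clamp. Ribonucleotide reductase, thymidylate synthase and thymidine kinase supply the deoxynucleotides, and CAF-1, ASF1 and SLBP supply the new DNA with histones. Many of these genes are transcribed in late G1 by E2F factors, so their summed mRNA in a culture also follows how many of its cells are in late G1 and S phase.

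Values are FPKM, fragments per kilobase of exon scaled to the size of the library, as the authors deposited them, and replicate values are given in the order of replicates 1, 2 and 3. A log2 fold change is that of si-NUF2 against si-NC on the log2(FPKM + 0.1) scale after the libraries were scaled to each other, as are pair differences, and a gene passed the test at a Benjamini-Hochberg adjusted p under 0.05 in limma over all genes tested. Same-numbered si-NUF2 and si-NC libraries of a line deviated together, so each result is given without and with the replicate number as a block where the block changed it. Depth, recovered from the FPKM of genes whose values came out as whole reads, was 28927592 to 38310758 reads per library. The labels do not say that replicates were separate cultures, so p-values measure only the spread between these libraries.

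NUF2 mRNA (ENSG00000143228, chromosome 1 from 163266576 to 163355764 on GRCh38) was lower with si-NUF2 in every library of both lines. In 769-P cells it stood at 19.4, 17.8 and 17.8 FPKM with si-NC and at 4.17, 3.86 and 3.01 FPKM with si-NUF2, a mean of 20.1% of the si-NC level. In ACHN cells it stood at 11.6, 15.0 and 14.8 FPKM with si-NC and at 2.16, 5.14 and 4.25 FPKM with si-NUF2, a mean of 27.9%. The exact permutation test of 3 against 3 libraries gave p = 0.10 in each line, two-sided, which is the smallest p it allows. Of 8 renal epithelial markers, 7 passed the filter in both lines, PAX8 and KRT8 among them, and CA9, a marker of clear cell tumours, was at 0 to 0.121 FPKM. Of 8 markers of lymphocytes, myeloid cells, endothelium and fibroblasts, 1 passed the filter in 769-P and 2 in ACHN cells. CD3E was at 0 in all 12 libraries. The summed level of the 8 ran from 1.82 to 3.09 FPKM in 769-P and from 4.76 to 7.95 FPKM in ACHN cells.

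In ACHN cells all 54 genes had a log2 fold change above 0, from 0.016 for RPA1 to 0.97 for GINS2, with a median of 0.37. Among all 15114 genes tested in that line, 50.6% were above 0. None of the 54 passed the limma test without the block, where no gene of the 15114 did, and limma-voom on recovered reads called none of the 53 it could test, but 24 of the 54 were higher at an unadjusted p under 0.05, against 5.09% of all genes. With the replicate block, 19 rose and none fell, a share of 35.2% against 6.89% of all genes that rose and 4.8% that fell. After scaling, every si-NUF2 library stood above every si-NC library in 28 of the 54 genes, against 8.71% of all genes, and none stood wholly below, against 5.85%. In FPKM as deposited, the scale on which single genes are called overlapping or not in the text, these counts were 27, against 7.85%, and none, against 6.44%. A single fit of all 12 libraries called 3 genes in ACHN cells, all higher, against 0.827% of all genes higher and 0.193% lower, and with the block it called 34, all higher, against 8.79% and 6.18%. In bulk RNA, a change in how many cells are in S phase and a change in these mRNAs per cell cannot be told apart.

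In 769-P cells the same genes lay on both sides of 0, with 30 above 0, against 48.7% of all genes, 24 below 0 and a median of 0.03, inside a range from -0.52 to 0.52. ASF1B alone passed the test without the block, as a lower gene, against 4.67% of all 14152 genes that fell and 5.21% that rose. With the block 7 fell, against 14% of all genes, and 9 rose, against 13.8%, so that the shares of the 54, 13% and 16.7%, lay near those of all genes. After scaling, every si-NUF2 library stood below every si-NC library for 5 of the 54 and above for 6, against 16.4% and 16.6% of all genes, and in FPKM as deposited for 6 and 9, against 17.3% and 16%. The fit of all 12 libraries called none of the 54, against 1.67% of all genes lower and 2.6% higher, and with the block 4 lower and 6 higher, against 13.7% and 13.6%.

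**Figure D1:**
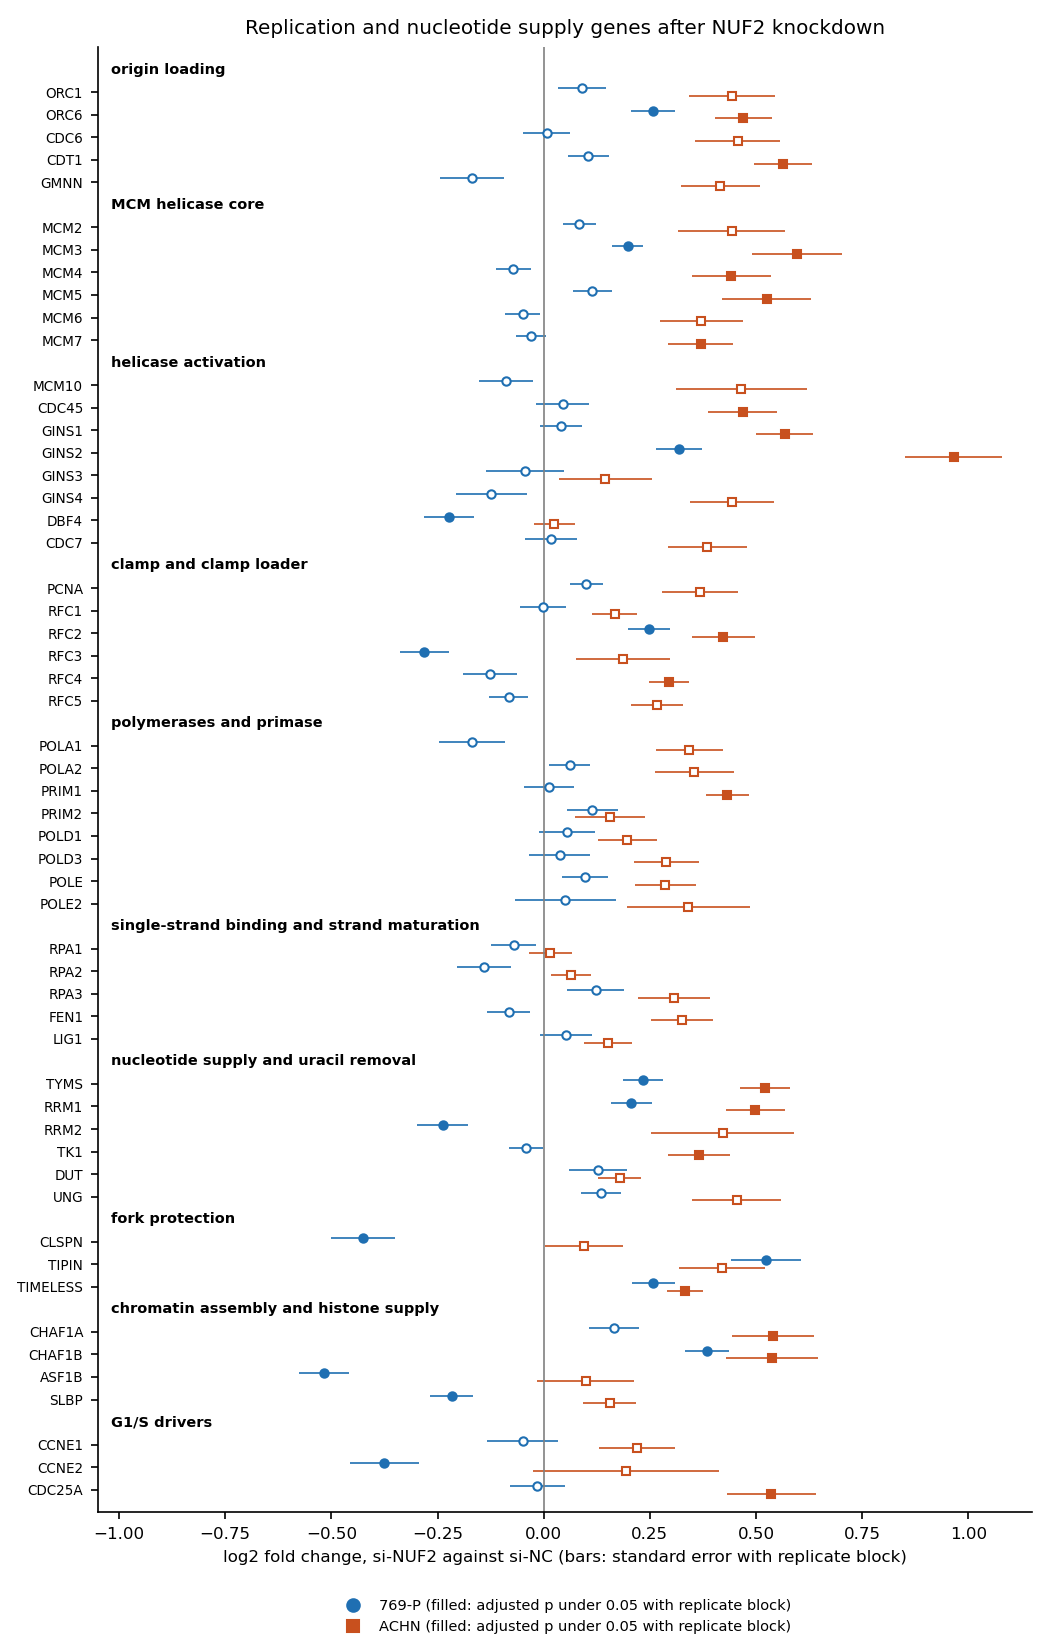
Log2 fold change of si-NUF2 against si-NC for the 54 genes by role, in 769-P (circles) and ACHN cells (squares), with the standard error of the fit with the replicate block as bars and filled symbols at an adjusted p under 0.05 in that fit. The ACHN symbols all lie above 0, with a median of 0.37, and the 769-P symbols lie on both sides of 0, with a median of 0.03.

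The differences in ACHN cells varied in size between the same-numbered pairs of libraries. In pair 1 the median log2 difference of the 54 genes was 0.56, with 54 higher. In pair 2 it was 0.18, with 50 higher, and in pair 3 it was 0.34, with 51 higher, while the median of all genes lay between -0.0069 and 0.016 in the 3 pairs. In all 3 pairs 47 of the 54 genes were higher with si-NUF2, against 28.9% of all genes, and none was lower in all 3. The library of ACHN si-NC replicate 1 stood apart: it was the lowest of the 6 ACHN libraries for 42 of the 54 genes, and the median deviation of the 54 from their mean there was -0.39 on the log2 scale, against 0.024 for all genes. Without that library the median log2 fold change was 0.23, with 52 genes above 0. With the block, 6 genes rose when pair 1 was left out, 16 when pair 2 was left out and none when pair 3 was left out. These fits with 1 pair less were chosen after the data had been seen, and they rest on 2 pairs.

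Genes of other processes moved with the ACHN libraries as well. CDKN1A, the CDK inhibitor p21 that p53 induces, stood at 281, 141 and 112 FPKM with si-NC and at 141, 100.1 and 59.6 FPKM with si-NUF2. It was highest in si-NC replicate 1, where the replication genes were lowest, and it was lower with si-NUF2 in each pair. Its log2 fold change of -0.78 passed the test with the block (adjusted p = 0.0198) but not without it (adjusted p = 0.768). Of 14 p53 target genes, 3 fell with the block, against 4.8% of all genes, and none rose, against 6.89%. Their summed level was 806 to 1722.5 FPKM with si-NC and 689.7 to 1041 FPKM with si-NUF2. Of 25 mitotic genes, 10 rose with the block, against 6.89% of all genes, with a median log2 fold change of 0.18 over the 25. The part of these genes in the result was not tested.

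**Figure D2:**
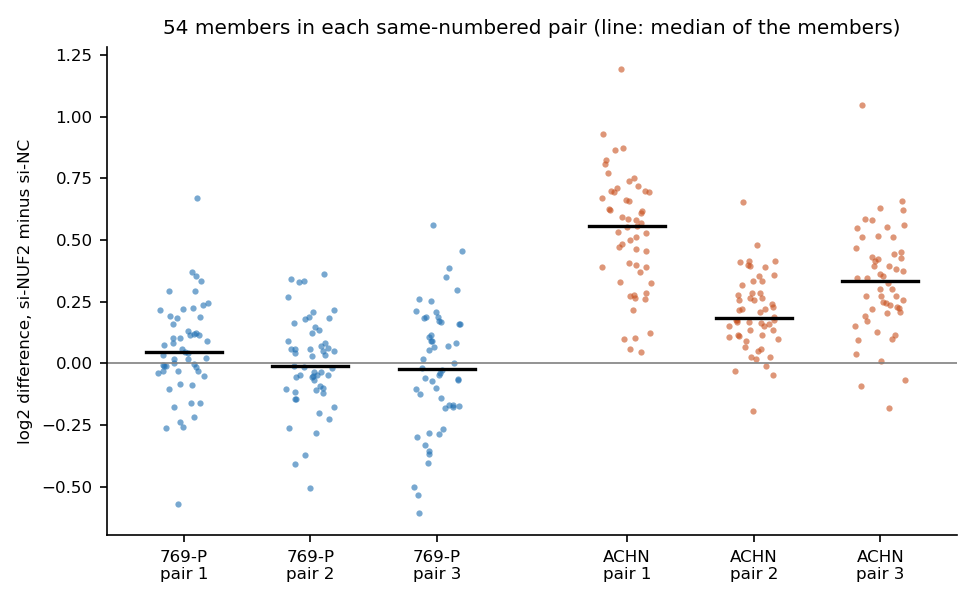
Log2 difference of si-NUF2 minus si-NC for each of the 54 genes (points) in each same-numbered pair of libraries, with the median of the genes as a black line. The 3 ACHN medians are 0.56, 0.18 and 0.34, and the 3 769-P medians are 0.04, -0.01 and -0.02.

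In 769-P cells the pairs gave medians of 0.04, -0.01 and -0.02, with 33, 26 and 26 of the 54 genes higher. In all 3 pairs 18 genes were higher and 13 were lower, against 30.9% and 32.2% of all genes. With the block, 4 fell and 2 rose when pair 1 was left out, 1 fell and 3 rose without pair 2, and 3 fell and 9 rose without pair 3.

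A sequence feature was more frequent near the start sites of these genes than near those of all genes. Windows of 250 bases before to 50 bases after the start were taken from RefSeq on GRCh38.p14, in which 47 of the 54 genes had at least 1 window and CCNE2, GINS4, MCM4, MCM5, POLD3, RPA2 and RPA3 had none. The 8-base E2F words TTTCCCGC, TTTCGCGC, TTTGCCGC and TTTGGCGC were searched on both strands. They were found for 24 of the 47 genes, 51.1%, against 3.99% of 27305 genes, and of the 33 matches 23 began within 100 bases before the start. The CCAAT box, searched as CCAAT, was found for 59.6% against 39.7%, and the cell-cycle homology words TTTGAA and TTCGAA for 12.8% against 19.5%. In ACHN cells the median log2 fold change was 0.38 for the 24 genes with an E2F word and 0.33 for the 23 without, and in 769-P cells it was 0.05 and -0.001. A match is a description of letters and not of a bound site.

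**Figure D3:**
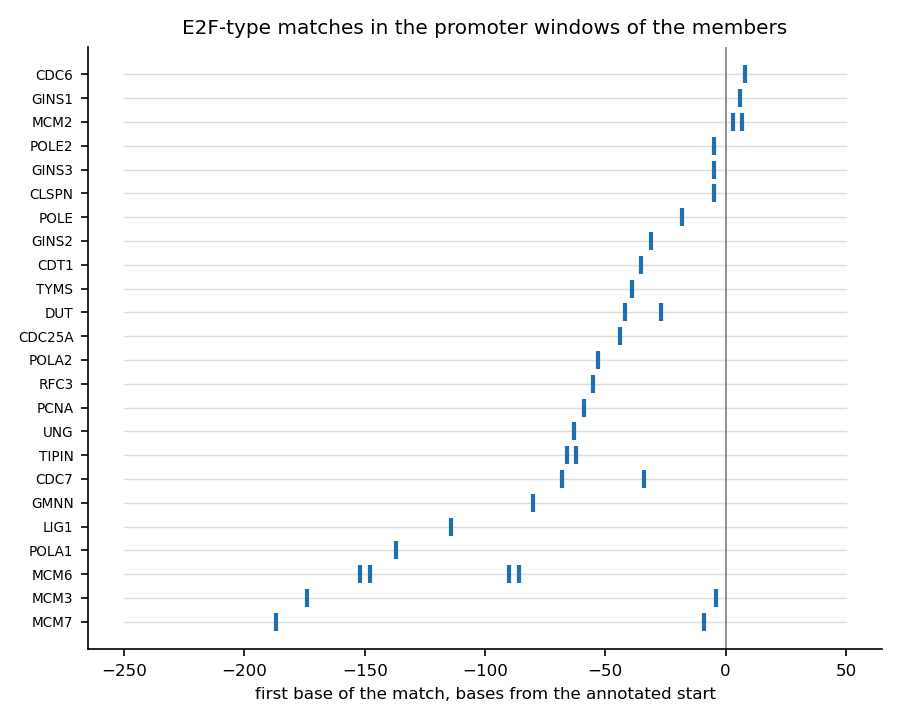
Position of the first base of each E2F word (bars) in the promoter windows of the 24 genes that hold one, in bases from the annotated start (0 on the axis). The 33 matches have a median position of -44.

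The windows of 4 genes are shown because the results turn on them. GINS2 had the highest log2 fold change in ACHN cells, GINS1 was one of the genes that differed between the lines with the block, MCM3 rose in both lines with the block, and ASF1B fell in 769-P cells. Sequences run 5′ to 3′ along the strand of the gene, and capitals mark each match to an E2F word, a CCAAT box or a cell-cycle homology word on either strand. They are from RefSeq on GRCh38.p14, for GINS2 at chr16:85688905-85689204 on the reverse strand, for GINS1 at chr20:25407423-25407722 on the forward strand, for MCM3 at chr6:52284693-52284992 on the reverse strand and for ASF1B at chr19:14136540-14136839 on the reverse strand.
GINS2: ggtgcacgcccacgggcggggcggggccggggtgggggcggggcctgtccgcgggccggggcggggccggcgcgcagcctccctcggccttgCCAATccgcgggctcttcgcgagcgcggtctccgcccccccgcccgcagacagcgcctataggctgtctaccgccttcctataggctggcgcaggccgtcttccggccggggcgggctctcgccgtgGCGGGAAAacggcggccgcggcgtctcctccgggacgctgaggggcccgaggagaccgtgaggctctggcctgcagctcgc
GINS1: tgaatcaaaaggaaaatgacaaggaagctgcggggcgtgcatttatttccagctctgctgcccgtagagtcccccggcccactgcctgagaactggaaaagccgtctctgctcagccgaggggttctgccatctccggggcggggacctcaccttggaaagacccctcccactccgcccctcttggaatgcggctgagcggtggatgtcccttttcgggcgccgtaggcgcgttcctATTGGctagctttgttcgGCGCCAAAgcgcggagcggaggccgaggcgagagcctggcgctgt
MCM3: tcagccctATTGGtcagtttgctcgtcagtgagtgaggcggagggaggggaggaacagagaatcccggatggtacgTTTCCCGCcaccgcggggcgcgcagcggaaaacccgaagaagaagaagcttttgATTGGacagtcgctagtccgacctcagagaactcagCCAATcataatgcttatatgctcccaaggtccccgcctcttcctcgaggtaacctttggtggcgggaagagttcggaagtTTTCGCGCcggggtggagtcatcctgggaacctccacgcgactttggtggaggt
ASF1B: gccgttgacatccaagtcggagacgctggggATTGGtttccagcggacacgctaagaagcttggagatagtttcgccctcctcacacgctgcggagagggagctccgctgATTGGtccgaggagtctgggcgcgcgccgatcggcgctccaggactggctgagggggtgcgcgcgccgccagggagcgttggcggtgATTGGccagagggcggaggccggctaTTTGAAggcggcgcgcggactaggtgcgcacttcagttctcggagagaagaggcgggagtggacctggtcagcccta
GINS2 holds 1 E2F word, which begins 31 bases before the start, and 1 CCAAT box. GINS1 holds its E2F word at base 6 after the RefSeq start and a CCAAT box 13 bases before that start. MCM3 holds E2F words that begin 174 and 4 bases before the start, with 3 CCAAT boxes. ASF1B holds none of the E2F words in this window, but 3 CCAAT boxes and 1 cell-cycle homology word that begins 27 bases before the start. Positions count from the RefSeq start, which for these genes differs from the gene coordinates given in the text. The GINS1 window ends at base 25407722, before the gene coordinates given for GINS1 begin at 25407727.

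The origin loading genes were all higher in ACHN cells, with a median log2 fold change of 0.46 and a range from 0.42 to 0.56 over 5 genes. CDT1, which brings the MCM helicase to the origin, stood at 11.7, 14.2 and 14.6 FPKM with si-NC and at 18.5, 18.6 and 22.3 FPKM with si-NUF2. The groups did not overlap, the log2 fold change was 0.56 (standard error 0.068 with the block), and it passed the test with the block (limma adjusted p = 0.0181) but not without it (adjusted p = 0.316). ORC6, the smallest subunit of the origin recognition complex, stood at 4.89, 5.44 and 6.43 FPKM with si-NC and at 7.48, 7.20 and 8.31 FPKM with si-NUF2. It rose by 0.47 on the log2 scale with the block (adjusted p = 0.0224, and 0.416 without it). ORC1, CDC6 and GMNN had values of 0.44, 0.46 and 0.42 and adjusted p-values from 0.0507 to 0.0531 with the block, just above the threshold. GMNN, the inhibitor of CDT1, stood at 6.47, 8.93 and 8.92 FPKM with si-NC and at 10.3, 11.1 and 10.5 FPKM with si-NUF2, so its groups did not overlap.

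In 769-P cells 4 of these 5 genes were above 0 and ORC6 was the only one to pass the test with the block. ORC6 stood at 13.0, 10.1 and 11.1 FPKM with si-NC and at 14.8, 12.6 and 13.1 FPKM with si-NUF2. Its groups overlapped because si-NC replicate 1 stood above 1 of the si-NUF2 libraries, but it was higher in each pair, by 0.19, 0.33 and 0.25 on the log2 scale (adjusted p = 0.0229 with the block and 0.214 without it). CDT1 stood at 27.7, 22.3 and 19.5 FPKM with si-NC and at 28.4, 25.0 and 20.6 FPKM with si-NUF2, and its log2 fold change of 0.10 did not pass the test in either fit.

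The 6 subunits of the MCM helicase core, the ring that unwinds the DNA at the fork, had log2 fold changes from 0.37 to 0.60 in ACHN cells, and MCM3, MCM4, MCM5 and MCM7 rose with the block. MCM3 (ENSG00000112118, chromosome 6 from 52264009 to 52284881) stood at 16.7, 26.7 and 22.5 FPKM with si-NC and at 30.5, 33.3 and 33.3 FPKM with si-NUF2. The si-NUF2 libraries all stood above the si-NC libraries, and within the pairs the differences were 0.87, 0.33 and 0.59 on the log2 scale. Its log2 fold change of 0.60 (standard error 0.11) passed the test with the block (adjusted p = 0.0337, and 0.446 without it). MCM5 stood at 8.03, 10.3 and 9.62 FPKM with si-NC and at 13.0, 11.9 and 15.0 FPKM with si-NUF2, with no overlap. It rose by 0.52 on the log2 scale with the block (adjusted p = 0.0422, and 0.389 without it). MCM2 and MCM6 had log2 fold changes of 0.44 and 0.37 and did not pass the test (adjusted p = 0.0847 and 0.0716 with the block).

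In 769-P cells the core lay between -0.07 and 0.20, with 3 genes above and 3 below 0. MCM3 stood at 82.0, 84.3 and 74.2 FPKM with si-NC and at 95.4, 93.6 and 84.9 FPKM with si-NUF2, again without overlap. Its log2 fold change there was 0.20, and it rose with the block (adjusted p = 0.0191) but not without it (adjusted p = 0.163). MCM4, MCM6 and MCM7 had values of -0.07, -0.05 and -0.03, and none of the 3 passed the test in either fit.

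Among the 8 helicase activation genes, CDC45, GINS1 and GINS2 rose in ACHN cells with the block, and the median was 0.45. GINS2 (ENSG00000131153, chromosome 16 from 85676198 to 85690073), a subunit of the 4-part GINS complex that holds the active helicase together, stood at 2.53, 4.44 and 3.50 FPKM with si-NC and at 5.88, 6.98 and 7.24 FPKM with si-NUF2. Its mean rose from 3.49 ± 0.958 to 6.70 ± 0.722 FPKM (SD, n = 3), and each pair was higher, by 1.19, 0.66 and 1.05 on the log2 scale. The log2 fold change of 0.97 (standard error 0.11 with the block) passed the test with the block (adjusted p = 0.0178) but not without it (adjusted p = 0.287). GINS1 (ENSG00000101003, chromosome 20 from 25407727 to 25452628) stood at 4.93, 6.37 and 6.42 FPKM with si-NC and at 8.09, 8.82 and 9.08 FPKM with si-NUF2, with no overlap. It rose by 0.57 on the log2 scale with the block (adjusted p = 0.0178, and 0.318 without it). CDC45, which joins the helicase at the firing origin, stood at 5.01, 6.29 and 5.82 FPKM with si-NC and at 7.39, 7.50 and 8.65 FPKM with si-NUF2. Its log2 fold change of 0.47 passed the test with the block (adjusted p = 0.0320, and 0.388 without it).

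The other GINS subunits did not pass the test in ACHN cells. GINS4 had a log2 fold change of 0.44 (adjusted p = 0.0514 with the block) and GINS3 one of 0.14 (adjusted p = 0.421). DBF4, the activating subunit of the CDC7 kinase, was the nearest to no difference in this group, at 6.94, 10.9 and 9.66 FPKM with si-NC and 7.14, 10.9 and 9.58 FPKM with si-NUF2. Its replicates differed from each other by more than the pairs did, with pair differences of 0.05, 0.02 and 0.01 on the log2 scale.

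In 769-P cells GINS2 stood at 14.7, 14.5 and 12.6 FPKM with si-NC and at 18.8, 16.7 and 16.3 FPKM with si-NUF2, without overlap. It rose there with the block, by 0.32 on the log2 scale (adjusted p = 0.0159, and 0.0852 without it). DBF4 fell with the block, from 8.71, 7.84 and 8.06 FPKM with si-NC to 7.76, 6.86 and 6.32 FPKM with si-NUF2, and its log2 fold change was -0.22 (adjusted p = 0.0471 with the block and 0.211 without it). GINS1, at 24.5 ± 0.671 FPKM with si-NC and 25.1 ± 2.19 FPKM with si-NUF2 (SD, n = 3), had a value of 0.04, which did not pass the test.

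**Figure D4:**
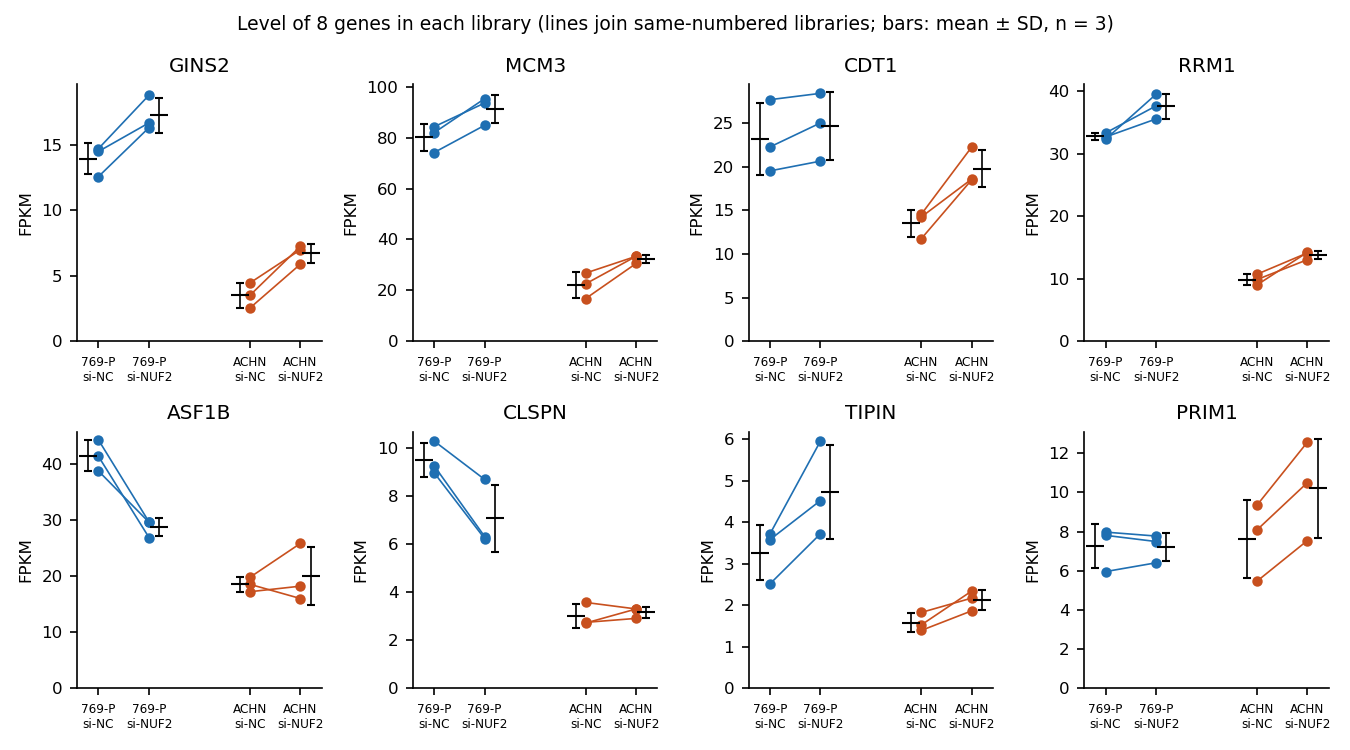
FPKM of 8 genes in each library, with points for the 3 replicates of a group, lines joining the same-numbered libraries of a line and bars for the mean ± SD (n = 3). GINS2, MCM3, CDT1, RRM1 and TIPIN are higher with si-NUF2 in every pair of both lines, and PRIM1 in every ACHN pair. In 769-P cells ASF1B and CLSPN are lower in every pair.

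PCNA, the sliding clamp, and the clamp loader RFC1 to RFC5 had log2 fold changes from 0.17 to 0.42 in ACHN cells, and RFC2 and RFC4 rose with the block. RFC2 stood at 25.9, 21.0 and 23.1 FPKM with si-NC and at 37.2, 24.3 and 32.4 FPKM with si-NUF2. The groups overlapped, and the difference lay within the pairs, at 0.53, 0.23 and 0.51 on the log2 scale (adjusted p = 0.0322 with the block and 0.632 without it). PCNA stood at 59.4, 60.8 and 66.2 FPKM with si-NC and at 91.1, 69.5 and 78.8 FPKM with si-NUF2, with no overlap, and its log2 fold change of 0.37 did not pass the test with the block (adjusted p = 0.0602). In 769-P cells 2 loader subunits passed the test with the block in opposite directions, and the difference between them was not tested. RFC2 stood at 28.1, 23.3 and 25.9 FPKM with si-NC and at 33.2, 29.1 and 28.8 FPKM with si-NUF2, a log2 fold change of 0.25 (adjusted p = 0.0237, and 0.172 without the block). RFC3 stood at 28.5, 28.3 and 28.0 FPKM with si-NC and at 25.2, 23.4 and 20.9 FPKM with si-NUF2, a log2 fold change of -0.28 (adjusted p = 0.0255, and 0.0815 without the block). All si-NUF2 libraries lay below the si-NC libraries for RFC3. PCNA, at 139.9 ± 0.522 FPKM with si-NC and 149 ± 5.94 FPKM with si-NUF2, had a value of 0.10 that did not pass the test.

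The 8 polymerase and primase genes had log2 fold changes from 0.16 to 0.43 in ACHN cells. PRIM1 (ENSG00000198056, chromosome 12 from 56731596 to 56752373), the catalytic subunit of primase, was the one that passed the test, and only with the block. It stood at 5.46, 8.08 and 9.34 FPKM with si-NC and at 7.54, 10.5 and 12.6 FPKM with si-NUF2. The replicates of each group spread over more than the difference, whereas the pairs differed by 0.46, 0.39 and 0.44 on the log2 scale, so the adjusted p was 0.0174 with the block and 0.793 without it. POLA1 and POLE, the catalytic subunits of polymerases alpha and epsilon, and POLA2, the partner of POLA1, had values of 0.34, 0.29 and 0.35 (adjusted p = 0.0544, 0.0652 and 0.0701 with the block). On GENCODE release 29, 16.2% of the exon bases of PRIM1 and 35.1% of those of POLA2 are shared with other genes on the same strand, so both are uncertain. In 769-P cells 7 of the 8 were above 0 and POLA1 was below, inside a range from -0.17 to 0.11, and none passed the test in either fit.

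Single-strand binding and strand maturation genes had the lowest median of the 10 roles in ACHN cells, 0.15 over 5 genes, and none passed the test in either line. RPA1, the large subunit of the single-strand binding protein, stood at 20.7, 21.7 and 20.4 FPKM with si-NC and at 21.5, 22.3 and 19.2 FPKM with si-NUF2, a log2 fold change of 0.02. RPA2 had a value of 0.06 and RPA3 one of 0.31. FEN1, the nuclease that trims Okazaki fragments, stood at 12.1, 12.3 and 13.4 FPKM with si-NC and at 17.2, 14.6 and 15.3 FPKM with si-NUF2, with no overlap and a log2 fold change of 0.33 (adjusted p = 0.0528 with the block). LIG1, the ligase that joins the fragments, had a value of 0.15. In 769-P cells the 5 genes lay between -0.14 and 0.12.

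Of the genes of nucleotide supply and uracil removal, TYMS, RRM1 and TK1 rose in ACHN cells with the block, and the median of the 6 was 0.44. TYMS, thymidylate synthase, stood at 13.2, 18.0 and 17.4 FPKM with si-NC and at 20.2, 23.4 and 25.2 FPKM with si-NUF2. Its groups did not overlap and its log2 fold change was 0.52 (adjusted p = 0.0167 with the block and 0.446 without it). RRM1, the large subunit of ribonucleotide reductase, stood at 8.99, 9.85 and 10.7 FPKM with si-NC and at 14.2, 13.0 and 14.1 FPKM with si-NUF2. It rose by 0.50 on the log2 scale with the block (adjusted p = 0.0213, and 0.258 without it), again with no overlap. TK1, thymidine kinase, stood at 54.2, 87.2 and 69.5 FPKM with si-NC and at 71.5, 97.4 and 98.2 FPKM with si-NUF2, and its groups overlapped while each pair was higher (adjusted p = 0.0420 with the block and 0.775 without it). RRM2, the small subunit of the reductase, stood at 4.45, 4.55 and 7.40 FPKM with si-NC and at 8.54, 4.88 and 8.50 FPKM with si-NUF2. Most of its log2 fold change of 0.42 lay in pair 1, with pair differences of 0.93, 0.12 and 0.22, and it did not pass the test (adjusted p = 0.164 with the block).

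In 769-P cells the reductase subunits RRM1 and RRM2 passed the test with the block in opposite directions, and the difference between them was not tested. RRM1 rose with the block, from 32.3, 32.7 and 33.3 FPKM with si-NC to 39.5, 35.6 and 37.7 FPKM with si-NUF2 (log2 fold change 0.21, adjusted p = 0.0351, and 0.103 without the block). RRM2 fell with the block, from 9.70, 8.36 and 8.25 FPKM to 8.66, 7.20 and 6.38 FPKM (log2 fold change -0.24, adjusted p = 0.0427, and 0.30 without the block). The RRM1 groups did not overlap and the RRM2 groups did. TYMS stood at 45.6, 42.8 and 41.4 FPKM with si-NC and at 55.8, 47.0 and 49.2 FPKM with si-NUF2 and rose with the block (log2 fold change 0.23, adjusted p = 0.0231, and 0.145 without the block). On GENCODE release 29, 46.6% of the exon bases of TYMS lie opposite exons of other genes, and 20.2% of those of RRM2 are shared with another gene on the same strand. Whether the counting used strand is not given in the sources used here, so reads of such partners cannot be told apart. Opposite exons also cover 23.6% of MCM2, 23.6% of GINS4, 14.5% of DUT, 10.9% of GINS3 and 10.7% of RFC5.

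The fork protection genes CLSPN, TIPIN and TIMELESS gave the widest spread in 769-P cells, where all 3 passed the test with the block in different directions. TIPIN and TIMELESS form the complex that steadies a stalled fork, and CLSPN, claspin, carries the checkpoint signal to CHK1. CLSPN stood at 10.3, 8.97 and 9.26 FPKM with si-NC and at 8.69, 6.22 and 6.31 FPKM with si-NUF2, every si-NUF2 library below every si-NC library. It fell by 0.42 on the log2 scale with the block (adjusted p = 0.0178, and 0.116 without it). TIPIN stood at 3.71, 3.58 and 2.51 FPKM with si-NC and at 5.95, 4.52 and 3.72 FPKM with si-NUF2, and rose by 0.52 with the block (adjusted p = 0.0135, and 0.166 without it). On GENCODE release 29, 21.0% of the exon bases of TIPIN are shared with a pseudogene on the same strand, so its values are uncertain. TIMELESS stood at 20.7, 18.5 and 17.3 FPKM with si-NC and at 24.3, 20.9 and 21.9 FPKM with si-NUF2, and rose by 0.26 with the block (adjusted p = 0.0225, and 0.150 without it). In ACHN cells TIMELESS alone of the 3 passed the test with the block, at 15.6, 23.2 and 22.8 FPKM with si-NC and 19.6, 28.7 and 28.7 FPKM with si-NUF2, where the pairs differed by 0.33, 0.32 and 0.35 on the log2 scale (adjusted p = 0.0189, and 0.821 without the block). TIPIN had a value of 0.42 (adjusted p = 0.0589 with the block) and CLSPN one of 0.10 (adjusted p = 0.527).

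The chromatin assembly and histone supply genes held the one gene that passed the test without the block. ASF1B (ENSG00000105011, chromosome 19 from 14119509 to 14136956), a chaperone that hands new histones to the assembly factors, stood in 769-P cells at 44.4, 38.8 and 41.4 FPKM with si-NC and at 29.7, 29.7 and 26.9 FPKM with si-NUF2. Every si-NUF2 library was below every si-NC library, and the mean went from 41.5 ± 2.77 to 28.8 ± 1.59 FPKM (SD, n = 3). It fell by 0.52 on the log2 scale (standard error 0.082, adjusted p = 0.0150 without the block and 0.00772 with it). Without si-NUF2 replicate 3 the adjusted p was 0.0587, without si-NC replicate 3 it was 0.0514, and over all alternatives it ran from 0.00672 to 0.0804. In ACHN cells ASF1B stood at 19.8, 18.6 and 17.3 FPKM with si-NC and at 25.9, 16 and 18.3 FPKM with si-NUF2, where si-NUF2 replicate 1 was far above the rest and the log2 fold change of 0.10 did not pass the test (adjusted p = 0.60 with the block).

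CHAF1A and CHAF1B, the large and middle subunits of the CAF-1 assembly factor, rose in ACHN cells with the block. CHAF1A stood at 9.53, 9.06 and 7.89 FPKM with si-NC and at 15.7, 10.9 and 12 FPKM with si-NUF2 (log2 fold change 0.54, adjusted p = 0.0342, and 0.449 without the block). CHAF1B stood at 2.56, 3.57 and 3.49 FPKM with si-NC and at 4.60, 4.54 and 4.68 FPKM with si-NUF2 (log2 fold change 0.54, adjusted p = 0.0419, and 0.397 without the block). In neither gene did the groups overlap. In 769-P cells CHAF1B rose with the block, from 8.54, 7.27 and 6.25 FPKM to 10.8, 9.29 and 8.54 FPKM (log2 fold change 0.39, adjusted p = 0.00994, and 0.136 without the block). SLBP, which binds the stem-loop of histone mRNAs, fell there with the block, from 64.0, 60.8 and 58.7 FPKM to 53.3, 56.1 and 47.7 FPKM (log2 fold change -0.22, adjusted p = 0.0356, and 0.144 without the block). CHAF1A had a value of 0.17 in 769-P cells and did not pass the test in either fit.

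Of the genes that drive entry into S phase, CDC25A, the phosphatase that activates CDK2, rose in ACHN cells with the block. It stood at 2.87, 3.39 and 4.04 FPKM with si-NC and at 4.95, 4.10 and 5.88 FPKM with si-NUF2, with no overlap and a log2 fold change of 0.54 (adjusted p = 0.0399, and 0.507 without the block). CCNE1, cyclin E1, had a value of 0.22 and CCNE2, cyclin E2, one of 0.19, and neither passed the test. CCNE2 was the lowest of the 54 genes in ACHN cells, at 0.471, 0.596 and 0.983 FPKM with si-NC and 0.777, 0.657 and 0.843 FPKM with si-NUF2, and its groups overlapped. In 769-P cells CCNE2 fell with the block, from 3.26, 3.72 and 3.14 FPKM with si-NC to 2.78, 2.75 and 2.17 FPKM with si-NUF2, without overlap (log2 fold change -0.38, adjusted p = 0.0291, and 0.112 without the block). On GENCODE release 29, 37.1% of the exon bases of CCNE2 lie opposite exons of other genes. CCNE1 and CDC25A had values of -0.05 and -0.02 in 769-P cells.

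With the block, 8 genes rose in both lines, which are 8 of the 9 that rose in 769-P and 8 of the 19 that rose in ACHN cells. Of 12928 genes tested in both lines 5.14% rose in both, which are 35.5% of those that rose in 769-P and 67.8% of those that rose in ACHN cells. They are CHAF1B, GINS2, MCM3, ORC6, RFC2, RRM1, TIMELESS and TYMS, and none fell in both, against 3.17% of all genes. The comparisons of the lines share no library. The log2 fold change of CHAF1B, for instance, was 0.39 for 769-P against 0.54 for ACHN, and that of TIMELESS was 0.26 against 0.33.

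Whether the lines responded differently was tested by an interaction term in 1 fit of all 12 libraries. The log2 fold change was more positive in ACHN cells for 53 of the 54 genes, against 52.3% of 16565 genes, with a median difference of 0.37 (ACHN minus 769-P), and TIPIN was the exception at -0.10. Without the block none of the 54 passed the test, nor did any of the 16565 genes, and 18 of the 54 had an unadjusted p under 0.05, all of them more positive in ACHN cells, against 2.40% of all genes in that direction. With the block GINS1 and PRIM1 passed the test, against 0.616% of all genes, and 38 had an unadjusted p under 0.05, against 10.7%. GINS1 differed by 0.53 on the log2 scale (with the block, standard error 0.082 and adjusted p = 0.0447, and without it 0.868). PRIM1 differed by 0.42 (with the block, standard error 0.068 and adjusted p = 0.0480, and without it 1.000). With any 1 pair of libraries left out, none of the 54 passed the test with the block. Several genes that fell in 769-P cells with the block had positive values in ACHN cells without passing this test, among them ASF1B with a difference of 0.62 (adjusted p = 0.0945 with the block) and CLSPN with one of 0.52 (adjusted p = 0.0983).

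The lines also differed in the level of these genes under the control siRNA. With si-NC, 45 of the 54 genes were lower in ACHN than in 769-P cells and none was higher, against 32.6% of 16565 genes that were lower and 30.8% that were higher. The median log2 difference of the 54 was -1.06, against -0.018 for all genes. A difference between the lines cannot be told apart from one in how each line was grown and transfected. Leaving out each library in turn gave 43 to 45 genes lower. The summed FPKM of the 54 ran from 1342 to 1467 in the si-NC libraries of 769-P cells and from 589 to 745 in those of ACHN cells, and with si-NUF2 it ran from 1323 to 1508 and from 833 to 911.

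The lowest p-values were those of FEN1, RRM1, GINS1, GMNN, MCM4, CDC6, ORC1 and GINS4. FEN1 stood at 45.4, 46.8 and 45.4 FPKM in 769-P and at 12.1, 12.3 and 13.4 FPKM in ACHN cells, 3.73-fold lower (log2 difference -1.90, standard error 0.082, adjusted p = 1.34e-08). RRM1 stood at 32.3, 32.7 and 33.3 FPKM and 8.99, 9.85 and 10.7 FPKM, 3.41-fold lower (log2 difference -1.77, adjusted p = 1.68e-08). GINS1 stood at 25.3, 24.2 and 24.1 FPKM and 4.93, 6.37 and 6.42 FPKM, 4.25-fold lower (log2 difference -2.09, adjusted p = 6.07e-08). None of these groups overlapped. GMNN, MCM4, CDC6, ORC1 and GINS4 were lower by 4.01, 3.64, 3.39, 3.19 and 3.01 fold (adjusted p from 1.86e-07 to 5.95e-07). The most negative log2 differences were those of MCM10, a helicase activator, at -2.39 and of CCNE2 at -2.24.

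Of the 9 genes that did not pass this test, DBF4, PRIM1 and TIMELESS lay above 0. PRIM1 stood at 7.24 ± 1.12 FPKM in 769-P and 7.63 ± 1.98 FPKM in ACHN cells (SD, n = 3, log2 difference 0.01, standard error 0.22). TIMELESS stood at 18.8 ± 1.69 and 20.5 ± 4.27 FPKM, and DBF4 at 8.20 ± 0.455 and 9.17 ± 2.03 FPKM, differences within the spread of the replicates. GINS3, POLD1, POLE, RFC2, RPA2 and RPA3 had log2 differences from -0.28 to -0.02 after scaling. RPA3, nearest to 0 among them, had a mean of 13.3 FPKM in 769-P and 13.6 FPKM in ACHN cells as deposited, so its direction depends on the scaling.

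**Figure D5:**
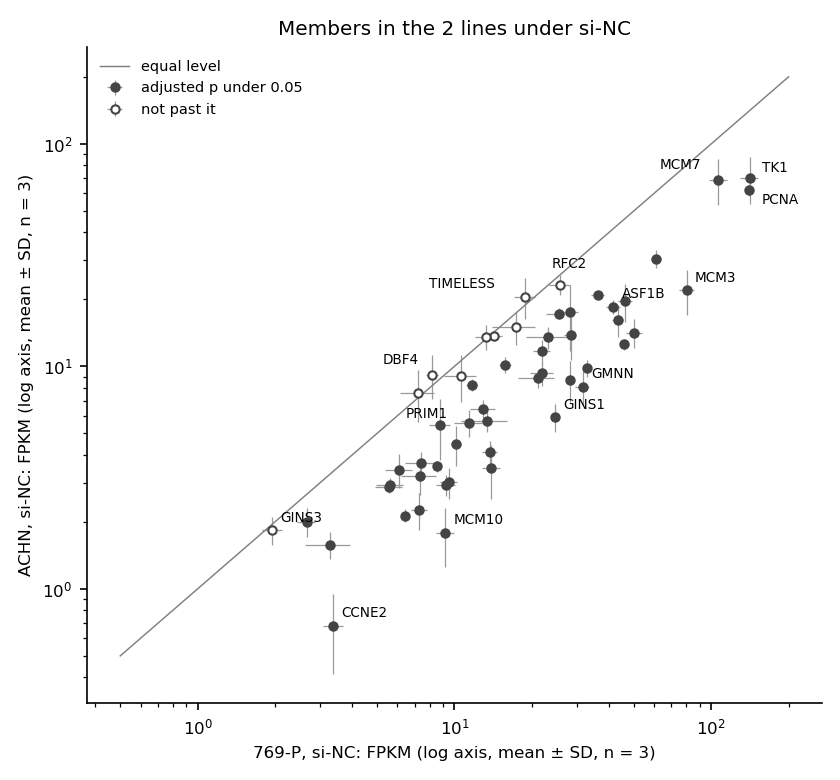
Mean FPKM of the 54 genes under si-NC in 769-P (horizontal) and ACHN cells (vertical), both on log axes with bars for ± SD (n = 3), filled where the lines differed at an adjusted p under 0.05, with the line of equal level. Filled points, 45 in all, lie below the line, and DBF4, PRIM1, RPA3 and TIMELESS lie on or just above it.

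The order of the levels was led by the same genes in both lines. Under si-NC in 769-P cells TK1 was the highest at 141 ± 11.3 FPKM (SD, n = 3), followed by PCNA at 139.9 ± 0.522 FPKM and MCM7 at 106 ± 8.64 FPKM, and GINS3 was the lowest at 1.95 ± 0.177 FPKM, around a median of 14.1 FPKM. In ACHN cells TK1 was the highest at 70.3 ± 16.5 FPKM, followed by MCM7 at 69.1 ± 16 FPKM and PCNA at 62.1 ± 3.59 FPKM, and CCNE2 was the lowest at 0.683 ± 0.267 FPKM, around a median of 8.78 FPKM. Of the 53 neighbours in the order, 43 overlapped in their replicate ranges in 769-P and 50 in ACHN cells, so most neighbouring places are not separated. TK1 and PCNA overlapped in 769-P cells, and TK1, MCM7 and PCNA overlapped as neighbours in ACHN cells.

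Subunits of one complex were not at one level per length. The FPKM of the GINS complex ran from 1.95 for GINS3 to 24.5 for GINS1 in 769-P cells, 12.6-fold, and from 1.84 to 5.91 in ACHN cells, 3.21-fold, with the same genes at the ends. In the MCM core they ran from 21.9 for MCM5 to 106.4 for MCM7 in 769-P cells, 4.85-fold, and from 9.32 to 69.1 in ACHN cells, 7.42-fold. The single-strand binding protein ran from 13.3 for RPA3 to 36.1 for RPA1 in 769-P cells and from 13.6 to 20.9 in ACHN cells. Lengths are those of the annotation, so a gene whose expressed transcripts are shorter than its annotated exons has an FPKM that is too low.

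A list of 30 further replication genes was read beside the 54. In 769-P cells 1 rose and 1 fell without the block, and 5 rose and 4 fell with it, with a median log2 fold change of -0.05. The shares of all genes that rose and fell were 5.21% and 4.67% without the block and 13.8% and 14% with it, so those of the list lay near them. NASP, a histone chaperone, stood at 21.3, 21.2 and 18.6 FPKM with si-NC and at 27.7, 28.2 and 26.1 FPKM with si-NUF2 and was higher in both fits (log2 fold change 0.43, adjusted p = 0.0232 without the block and 0.00688 with it), though its adjusted p reached 0.0724 when si-NUF2 replicate 2 was left out. DNA2, a nuclease and helicase of fork processing, stood at 8.32, 8.28 and 8.31 FPKM and 6.95, 6.18 and 5.98 FPKM and was lower in both (log2 fold change -0.37, adjusted p = 0.0392 and 0.0152), with an adjusted p of up to 0.129 when si-NUF2 replicate 3 was left out. SAMHD1, which breaks down deoxynucleotides, stood at 16.6, 15.2 and 14.4 FPKM with si-NC and at 31.0, 29.7 and 18.3 FPKM with si-NUF2. Its si-NUF2 replicate 3 was nearer to si-NC than the other replicates. SAMHD1 rose with the block (log2 fold change 0.74, adjusted p = 0.0170, and 0.0595 without it). In the same si-NUF2 libraries the geometric mean of 12 interferon-stimulated genes was 15.4, 19.0 and 5.75 FPKM. A link between these genes and SAMHD1 was not tested. DSCC1 and MCMBP fell with the block in 769-P cells, by 0.46 and 0.18 on the log2 scale (adjusted p = 0.0143 and 0.0440), and ORC4 had a value of -0.22 (adjusted p = 0.0523).

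In ACHN cells 22 of the 30 further genes were above 0, with a median of 0.17, none passed the test without the block, and 4 rose and none fell with it, against 6.89% and 4.8% of all genes. NASP rose by 0.33 on the log2 scale with the block (adjusted p = 0.0269), as did POLE3, a small subunit of polymerase epsilon, by 0.32 (adjusted p = 0.0459). Without si-NC replicate 1 and without the block, the log2 fold changes were 0.21 for NASP, 0.18 for POLE3 and 0.15 for MTBP. With all libraries WDHD1, MTBP and ORC4 had values of 0.25, 0.27 and -0.18 and did not pass the test (adjusted p = 0.0933, 0.127 and 0.10 with the block). CDK2, the kinase that cyclin E activates, stood at 14.4, 19.5 and 22.1 FPKM with si-NC and at 19.3, 22.9 and 27.7 FPKM with si-NUF2 in ACHN cells (log2 fold change 0.34, adjusted p = 0.0274 with the block and 0.793 without it). RRM2B, the p53-induced small subunit of ribonucleotide reductase, rose in 769-P cells with the block by 0.31 (adjusted p = 0.0156) and had a value of -0.25 in ACHN cells (adjusted p = 0.108).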

How the data were processed

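Libraries were grouped by the line and siRNA in their labels, with 3 per group. The authors deposited FPKM, 1 value per gene and library, and the submitters' processing notes name HISAT2 2.0.5, featureCounts 1.5.0-p3 and the hg38 build. The annotation and strand setting are not given in the sources used here. The authors filtered reads with fastp and called their own DEGs with DESeq2, which was not used here. Exon lengths of GENCODE release 29 turned 96.3% of low values (under 1000 reads) into whole reads within 0.05 of a read. The depth of 28927592 to 38310758 reads per library sums only genes whose values were whole. These are 34984 of the 36305 genes above 0 in a library, so reads of the other genes are missing from it. The median SD of replicates over the 54 genes was 0.12 to 0.19 on the log2 scale.

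FPKM were scaled by a trimmed mean of log ratios (30% of ratios and 5% of levels trimmed), genes were kept when 3 or more libraries reached a scaled FPKM of 0.5, and log2(FPKM + 0.1) was fitted with limma 3.58.1 in R 4.3.3 (lmFit and eBayes with trend), with Benjamini-Hochberg adjustment over all genes tested. A fold change on this scale understates the change of low genes. Each line was fitted alone, without a block, and the interaction and the lines under si-NC were fitted over all 12 libraries scaled together. The fits of each line without the block were tested on simulated data with 200 genes changed by 1 on the log2 scale. They called 78.5% of these in 769-P and 48.0% in ACHN cells, with 4.27% and 6.80% of calls false. Smaller changes were not simulated. The simulated noise was independent for each gene and library, so it held no deviation shared by same-numbered libraries. These rates therefore need not hold for the real libraries.

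Deviations from the group means of same-numbered si-NUF2 and si-NC libraries correlated over genes at 0.36, 0.27 and 0.19 in 769-P and at 0.65, 0.74 and 0.46 in ACHN cells, so blocked values are printed where they change a call. What a number stands for is not given in the labels. No 2 libraries were identical.

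Full statistics were given for members called without the block in 769-P and with it in ACHN cells (up to 12 by fold change), for those called in the interaction, for the 8 with the lowest p between lines, and for up to 6 further replication genes per line by p, of which 1 is not reported here. Of the other members, the lowest and highest are given with those called with the block in 769-P cells, and the statistics of the latter were chosen after their values were seen. The 54 members, the other gene lists and the promoter words were chosen with earlier results of these data known. Alternatives were 2 other scalings, FPKM as deposited, pseudocounts of 1 and 0.01, no filter, the block, all 12 libraries in 1 fit, limma-voom on recovered reads and each library left out. The block with 1 pair left out, and with all 12 libraries, was added after the data had been seen. Promoter windows came from RefSeq on GRCh38.p14. Tables were made in Python 3.11.15 with pandas 2.3.3, NumPy 2.4.6 and SciPy 1.17.1, and figures with matplotlib 3.10.9.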

Additional observations from a re-analysis of the deposited data

Results flagged for a closer look

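GINS1 and PRIM1 were the 2 of the 54 genes whose response to si-NUF2 differed between the lines by the test of the difference itself, and only with the replicate block. GINS1 differed by 0.53 on the log2 scale, ACHN minus 769-P (limma adjusted p = 0.0447), with a log2 fold change of 0.57 in ACHN and 0.04 in 769-P cells. PRIM1 differed by 0.42 (adjusted p = 0.0480), with log2 fold changes of 0.43 and 0.01. On GENCODE release 29, 16.2% of the exon bases of PRIM1 are shared with other genes on the same strand. With any 1 pair of libraries left out, neither passed the test.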

How the results depend on the processing

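Under the other scalings, pseudocounts and no filter, the counts of genes called in each line and in the interaction were those without them, and 45 to 46 were called between the lines. Limma-voom, run within each line, called 1 of the 769-P and 0 of the ACHN genes. The replicate block moved the count called in 769-P cells from 1 to 16 (7 lower, 9 higher), in ACHN cells from 0 to 19 and in the interaction from 0 to 2. A single fit of all 12 libraries called 0 for 769-P and 3 for ACHN cells, or 10 and 34 when blocked. With the block and without 1 pair, the 769-P counts were 6, 4 and 12 and the ACHN counts 6, 16 and 0 for pairs 1, 2 and 3. Leaving out each replicate in turn gave 0 to 2 called in 769-P (0 without si-NUF2 replicate 3 or si-NC replicate 3, 2 without si-NUF2 replicate 1), none in ACHN cells or the interaction, and 43 to 45 between the lines. The median log2 fold change of the 54 ran from -0.047 (without si-NUF2 replicate 1) to 0.084 in 769-P cells, was -0.042 without si-NC replicate 3, and from 0.23 (without si-NC replicate 1) to 0.42 in ACHN cells. NUF2 in ACHN cells did not pass the test without the block (log2 fold change -1.88, adjusted p = 0.221) and passed it with the block (-1.88, adjusted p = 0.0130), in the 12-library fit (-1.88, adjusted p = 0.0114, and 0.00306 with the block), and with the block without pair 1 (-1.63, adjusted p = 0.0333) or pair 2 (-2.05, adjusted p = 0.0283). When each ACHN library was left out in turn without the block, NUF2 did not pass the test. Its log2 fold changes in these fits ran from -2.12 to -1.52, with limma adjusted p-values from 0.336 to 0.803. Of single genes followed over settings, 537 results kept their side of the threshold, 64 passed it newly and 18 lost it, and none was reversed. The cause was not tested. Depth limits low genes most, of which CCNE2 in ACHN cells was the lowest of the 54 in FPKM. CDC6 was expressed in both lines, but its FPKM did not convert to whole reads, so limma-voom tested 53.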

Other observations

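Other gene lists were read in the same libraries. The interferon-stimulated genes rose in 769-P cells, where 10 of 12 were tested, 3 rose without the block and 10 with it, with a median log2 fold change of 2.02 and a geometric mean of 2.20 to 3.72 FPKM with si-NC against 5.75 to 19.0 FPKM with si-NUF2. In ACHN cells 3 of 12 fell with the block and none rose, with a median of -0.15. The difference in response to si-NUF2 between the lines passed the test with the block for 9 of the 12. All 9 had the lower log2 fold change in ACHN cells. Of 13 E2F factors and partners, 1 fell in 769-P cells without the block and 6 with it, with a median of -0.23, and in ACHN cells 1 rose with the block, with a median of 0.02. Of 25 mitotic genes, 3 rose in 769-P cells without the block, and with it 6 rose and 3 fell. Of 14 p53 targets, 1 rose in 769-P cells without the block, and with it 5 rose and 1 fell. Of all genes tested in 769-P cells, 5.21% rose and 4.67% fell without the block, and 13.8% rose and 14% fell with it. The share of mitotic genes that fell there with the block lay near that of all genes. In ACHN cells 6.89% of all genes rose and 4.8% fell with the block. With the block, 135 of 16565 genes passed the test of the difference in response, with the lower log2 fold change in ACHN cells.

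Under si-NC the p53 targets stood opposite to the replication genes between the lines: 10 of 14 were higher and none lower in ACHN cells, with a median log2 difference of 1.19. Of the mitotic genes, 13 of 25 were lower and none higher, with a median of -0.45. Of the further replication genes, 19 of 30 were lower and 2 higher, with a median of -0.59. Of the E2F factors and partners 9 of 13 were lower and 2 higher. Of all 16565 genes tested, 32.6% were lower and 30.8% higher in ACHN cells. DSCC1, which loads PCNA for cohesion, stood at 14.9 ± 2.23 FPKM in 769-P and 1.76 ± 0.124 FPKM in ACHN cells (SD, n = 3), 8.23-fold lower (limma adjusted p = 1.14e-07), and was singled out after its values were seen.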
